A study of Mus musculus with 24 samples.

Results

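The Cyp4 genes of the mouse liver encode cytochrome P450 enzymes that hydroxylate fatty acids at their last (omega) carbon. The 10 genes described here were chosen by gene symbol among the 55421 rows of the count table: Cyp4a10, Cyp4a14, Cyp4a12a, Cyp4a12b, Cyp4a31, Cyp4a32, Cyp4f13, Cyp4f14, Cyp4f15 and Cyp4v3. All 10 passed the filter on low counts and were among the 13583 genes tested. The transcripts were measured in 24 male mice, 6 in each of 4 groups, by RNA-seq of polyA RNA from hepatocytes isolated by liver perfusion. By the labels, the young mice were C57BL/6N and 6 months old, and the old mice were C57BL/6J and 24 months old, which leaves age and substrain inseparable (they cannot be told apart). Both ages were kept for 9 weeks either on a normal diet (ND, a Teklad chow) or on a high-fat diet (HFD, 58Y1, with 60% of its energy from fat). The study's methods name a different normal diet (58Y2), and its text gives other ages than the labels used here, so which normal diet the ND mice ate is in doubt. Every group was processed in 2 batches named in the labels, with 3 mice of each group per batch, except that the old ND group had 2 mice in batch 1 and 4 in batch 2.

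Omega-hydroxylation is the first step of a side route of fatty acid breakdown: the hydroxyl group is oxidised further by alcohol and aldehyde dehydrogenases to a dicarboxylic acid, which is activated to its CoA ester and shortened in the peroxisome. The route is minor in the fed liver and becomes more used when fatty acids are plentiful, as in fasting. Cyp4a10 and Cyp4a14 are textbook targets of PPARalpha, the nuclear receptor that senses fatty acids, whereas the Cyp4a12 genes are known as male-biased genes of liver and kidney and as arachidonic acid hydroxylases that make 20-HETE. The Cyp4f enzymes act on long-chain fatty acids and on eicosanoids such as leukotriene B4, and Cyp4v3 is the mouse counterpart of the human fatty acid hydroxylase CYP4V2.

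The 6 Cyp4a genes lie close together on chromosome 4 (GRCm38, GENCODE M21 annotation). Cyp4a12a occupies chr4:115299046-115332815, Cyp4a12b chr4:115411624-115439034, Cyp4a10 chr4:115518264-115533649, Cyp4a31 chr4:115563649-115579015 and Cyp4a32 chr4:115600969-115621602, all on the plus strand. Cyp4a14 lies among them at chr4:115486200-115496142 on the minus strand. The Cyp4f genes lie on chromosome 17, with Cyp4f15 at chr17:32685627-32703352 (plus strand), Cyp4f14 at chr17:32905070-32917342 (minus) and Cyp4f13 at chr17:32924688-32947402 (minus). Cyp4v3 lies alone at chr8:45304944-45333216 (minus strand), where its exons overlap the predicted gene Gm45753.

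How far neighbouring copies can be told apart by short reads bears on every value below, so the coding sequences of the GENCODE M21 transcripts were compared. Cyp4a12a and Cyp4a12b are identical at 98.5% of their 1524 coding positions and differ at 23. Below is the stretch of coding bases 661 to 750 (counted from the first base of the start codon), shown because 7 of these differences fall there. Capitals mark the bases that differ between the pair.

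Cyp4a12a: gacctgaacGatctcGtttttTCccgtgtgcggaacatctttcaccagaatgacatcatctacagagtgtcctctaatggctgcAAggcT
Cyp4a12b: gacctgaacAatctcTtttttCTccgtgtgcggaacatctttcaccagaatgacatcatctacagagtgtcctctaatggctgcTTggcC

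Cyp4a10 shares 97.2% of its coding positions with Cyp4a32 and 96.6% with Cyp4a31, against 75.1% with Cyp4a14 and 80.0% with Cyp4a12a. The stretch of coding bases 73 to 162 shows this spread. Of these 90 bases, 7 differ from Cyp4a10 in Cyp4a31, 3 in Cyp4a32 and 25 in Cyp4a14. Capitals mark the 28 positions at which the 4 genes are not all the same.

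Cyp4a10: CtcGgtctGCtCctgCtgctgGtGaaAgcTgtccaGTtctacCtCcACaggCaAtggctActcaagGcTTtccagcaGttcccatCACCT
Cyp4a31: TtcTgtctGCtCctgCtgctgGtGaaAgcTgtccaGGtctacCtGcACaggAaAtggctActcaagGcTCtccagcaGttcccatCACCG
Cyp4a32: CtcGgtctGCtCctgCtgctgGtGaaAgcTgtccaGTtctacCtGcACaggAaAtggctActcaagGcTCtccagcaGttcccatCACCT
Cyp4a14: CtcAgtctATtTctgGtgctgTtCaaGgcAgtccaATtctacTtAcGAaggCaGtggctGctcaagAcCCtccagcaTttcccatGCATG

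Of all 100-base windows of the transcript, 35.8% in Cyp4a12a and 36.2% in Cyp4a12b occur unchanged in another gene. The share is 20.1% for Cyp4a32, 12.7% for Cyp4a10, 8.22% for Cyp4a31 and 5.77% for Cyp4v3, and no such window was found for Cyp4a14, Cyp4f13, Cyp4f14 or Cyp4f15. Of 50-base windows, 48.9% and 49.4% are shared for the Cyp4a12 copies, 46.8% for Cyp4a32, 30.5% for Cyp4a10, 21.8% for Cyp4a31, 7.02% for Cyp4v3, 2.45% to 2.72% for the Cyp4f genes and 0.245% for Cyp4a14. The read length is not given in the sources used here. How reads with more than 1 match were counted is not given in the sources used here. The split of reads between Cyp4a12a and Cyp4a12b, and among Cyp4a10, Cyp4a31 and Cyp4a32, is therefore uncertain, and sums over the copies are given beside the single genes. Cyp4a14 is the member least touched by this limit.

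The libraries held 9200332 to 22185069 counted reads, and every count below is given as CPM (each count scaled to a library total of 1e+06 reads, with TMM factors). The hepatocyte markers Alb, Apoa1, Apob, Ttr, Hnf4a, Cps1 and Serpina1c had reads in every mouse and summed to 43749 to 158497 CPM. Markers of immune cells summed to 2.42 to 937 CPM. Old ND replicate 4 stood apart, with the lowest sum of hepatocyte markers of its group (43749 CPM, against 111186 to 158497 CPM in the other 5 mice) and the highest sum of immune markers (937 CPM). Results that rest on this mouse are given with and without it.

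Levels were compared between genes as CPM per kb of exon length. In young ND mice Cyp4f14 led with 133 ± 18.4 CPM per kb (mean ± SD, n = 6), followed by Cyp4v3 with 118 ± 13.2, Cyp4a12a with 118 ± 27.3, Cyp4a14 with 112 ± 93.8, Cyp4a10 with 84.0 ± 47.6 and Cyp4f15 with 55.2 ± 4.56. The ranges of neighbours among these genes overlapped, so their order is not resolved beyond the spread between mice. Cyp4a12b followed at 22 ± 5.21 CPM per kb, separated from Cyp4f15 above it and from Cyp4f13 (13.4 ± 1.25) below it. Cyp4a32 (10.5 ± 3.18) overlapped Cyp4f13, and Cyp4a31 was the lowest at 0.833 ± 0.386 CPM per kb. In old ND mice the order of the first members was Cyp4f14 (100.4 ± 27.4), Cyp4v3 (76.7 ± 21.5), Cyp4a14 (63.3 ± 42.2), Cyp4f15 (50.001 ± 11.02), Cyp4a12a (44.4 ± 13.4) and Cyp4a10 (43.1 ± 25.0), again with overlapping neighbours. On HFD Cyp4a14 and Cyp4a10 held the first and second place at both ages, with 481 ± 133 and 280 ± 92.1 CPM per kb in young mice and with 340 ± 149 and 198 ± 110 CPM per kb in old mice. In all 6 mice of either HFD group Cyp4a14 lay above Cyp4a10, although the ranges of the pair overlapped. Only in young HFD mice was Cyp4a10 separated in range from the gene below it, Cyp4v3, at 122 ± 16.3 CPM per kb.

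As shares of the 10 genes' summed CPM per kb, Cyp4a14 made up 15.1 ± 10.4% in young and 14 ± 7.63% in old mice on ND, against 41.5 ± 5.37% and 37.1 ± 8.33% on HFD. Cyp4a12a made up 17.9 ± 2.74% and 11.1 ± 1.72% on ND, against 3.99 ± 1.15% and 6.17 ± 3.39% on HFD. Cyp4f14 made up 20.6 ± 4.18% in young ND and 25.5 ± 5.22% in old ND mice, against 9.48 ± 1.55% and 12.4 ± 4.41% on HFD. These shares describe the make-up of the family and were not tested, since a larger share of one member lowers the shares of the others.

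**Figure D1:**
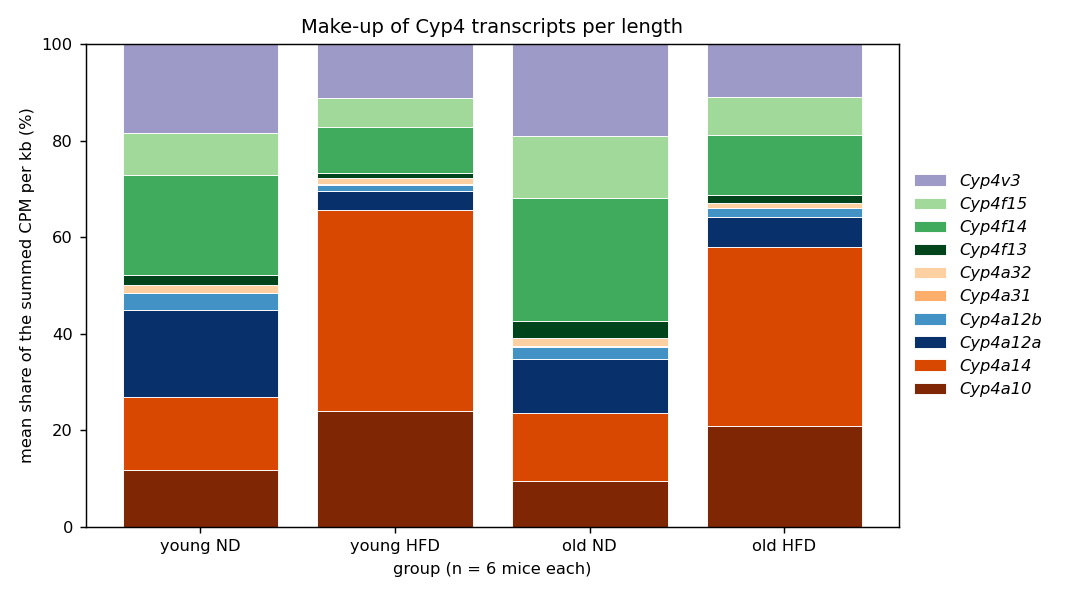
Mean share (%) of each of the 10 Cyp4 genes in their summed CPM per kb of exon length, as stacked bars for the 4 groups of 6 mice. Cyp4a10 and Cyp4a14 (the lowest 2 segments) widen on HFD at both ages, and Cyp4a12a takes 17.9% in young ND against 3.99% to 11.1% in the other groups.

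The first question was which omega-hydroxylases differed between diets in young mice. Cyp4a10 and Cyp4a14 were higher on HFD and Cyp4a12a was lower, while the Cyp4f genes and Cyp4v3 did not pass the test. This makes 3 of 10 members past an adjusted p of 0.05 (edgeR quasi-likelihood test, Benjamini-Hochberg over all genes tested), against 3.5% of all genes tested (1.91% higher and 1.59% lower). Their median log2 fold change was 0.15, beside 0.01 over all genes, and members moved in both directions.

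Cyp4a10 ranged from 43.4 to 331 CPM in young ND mice (median 160.3) and from 435 to 961 CPM in young HFD mice (median 549.6). The ranges did not overlap. The fitted difference was a log2 fold change of 1.82 (SE 0.43), or 3.54-fold (edgeR, adjusted p = 0.0214), and it was 1.48 within batch 1 and 2.15 within batch 2.

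Cyp4a14 ranged from 34.3 to 661 CPM in young ND mice (median 220.5) and from 812 to 1692 CPM in young HFD mice (median 1235). All 6 HFD mice lay above all 6 ND mice, and the ND mice spread over a wider span of fold than the HFD mice. The log2 fold change was 2.16 (SE 0.55), or 4.48-fold (edgeR, adjusted p = 0.0318), with 1.77 in batch 1 and 2.56 in batch 2. The call was lost when any of 5 mice was left out (edgeR, adjusted p = 0.0595 to 0.0808, log2 fold change 1.91 to 2.13), namely young ND replicates 1, 2, 4 and 6 and young HFD replicate 5. The call of Cyp4a10 was lost without young ND replicate 2 or 4 (edgeR, adjusted p = 0.0621 and 0.0544). Without the batch term neither Cyp4a10 nor Cyp4a14 passed (edgeR, adjusted p = 0.0707 and 0.0633), at log2 fold changes of 1.73 and 2.10.

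Cyp4a12a went the other way. It ranged from 216 to 406 CPM in young ND mice (median 266) and from 73.6 to 152 CPM in young HFD mice (median 104), without overlap. The log2 fold change was -1.40 (SE 0.27), which is 2.64-fold lower on HFD (edgeR, adjusted p = 0.00449), and the call held whichever mouse was left out. Within the batches the value was -1.94 in batch 1 and -0.87 in batch 2.

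Cyp4a12b ranged from 36.3 to 66.7 CPM in young ND mice and from 8.12 to 64.7 CPM in young HFD mice. Its log2 fold change of -0.86 (SE 0.39) did not pass (edgeR, adjusted p = 0.205), and the 2 HFD mice at 57.5 and 64.7 CPM, both of batch 2, lay within the ND range. Within batch 1 the value was -1.84 and within batch 2 it was -0.08. Summed, the Cyp4a12 copies had a log2 fold change of -1.29 (SE 0.28; edgeR, adjusted p = 0.0131).

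The minor neighbours of Cyp4a10 did not pass the test. Cyp4a31 ranged from 0.741 to 3.18 CPM in young ND and from 3.96 to 9.55 CPM in young HFD mice, without overlap, with a log2 fold change of 1.54 (SE 0.53; edgeR, adjusted p = 0.0984). Its counts were small, at 14 to 54 reads per young ND mouse. Cyp4a32 ranged from 12.3 to 24.7 CPM and from 19.4 to 35.9 CPM in the same groups, with a log2 fold change of 0.62 (SE 0.25; edgeR, adjusted p = 0.145). Summed, Cyp4a10, Cyp4a31 and Cyp4a32 had a log2 fold change of 1.75 (SE 0.39; edgeR, adjusted p = 0.0165).

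The Cyp4f genes and Cyp4v3 had small differences between diets in young mice. Cyp4f14 ranged from 264 to 382 CPM on ND and from 235 to 290.3 CPM on HFD (log2 fold change -0.32, SE 0.15; edgeR, adjusted p = 0.213). Cyp4f15 had 0.26 (SE 0.15), Cyp4f13 -0.21 (SE 0.12) and Cyp4v3 0.05 (SE 0.16), with adjusted p (edgeR) of 0.345, 0.32 and 0.913. Cyp4v3 was among the most abundant members and ranged from 372 to 507 CPM on ND and from 370.3 to 541 CPM on HFD.

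Markers of immune, stellate and sinusoidal endothelial cells had higher values on HFD in young mice too. The 1 cholangiocyte marker tested did not pass, at a log2 fold change of -0.11. The immune markers summed to a median of 18.8 CPM on ND (2.42 to 60.2) and 98.6 CPM on HFD (15.6 to 158), and their median log2 fold change was 2.23. On ND these sums followed batch, at 2.42 to 5.37 CPM in batch 1 and 32.3 to 60.2 CPM in batch 2. On HFD they were 15.6 to 157 CPM in batch 1 and 69.3 to 158 CPM in batch 2. The median log2 fold change was 1.56 for stellate cell and 1.57 for sinusoidal endothelial markers. On ND the stellate sums were 5.25 to 13.8 CPM in batch 1 and 41.3 to 60.0 CPM in batch 2. The endothelial sums on ND were 8.06 to 20.8 CPM in batch 1 and 58.8 to 90.7 CPM in batch 2. For the 7 hepatocyte markers the median log2 fold change was -0.21, beside 0.01 over all genes. Only Cd74, Dcn and Stab2, 1 gene each of the immune, stellate and endothelial lists, passed the test (4 endothelial markers without old ND replicate 4). Their part in the differences between diets was not tested.

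**Figure D2:**
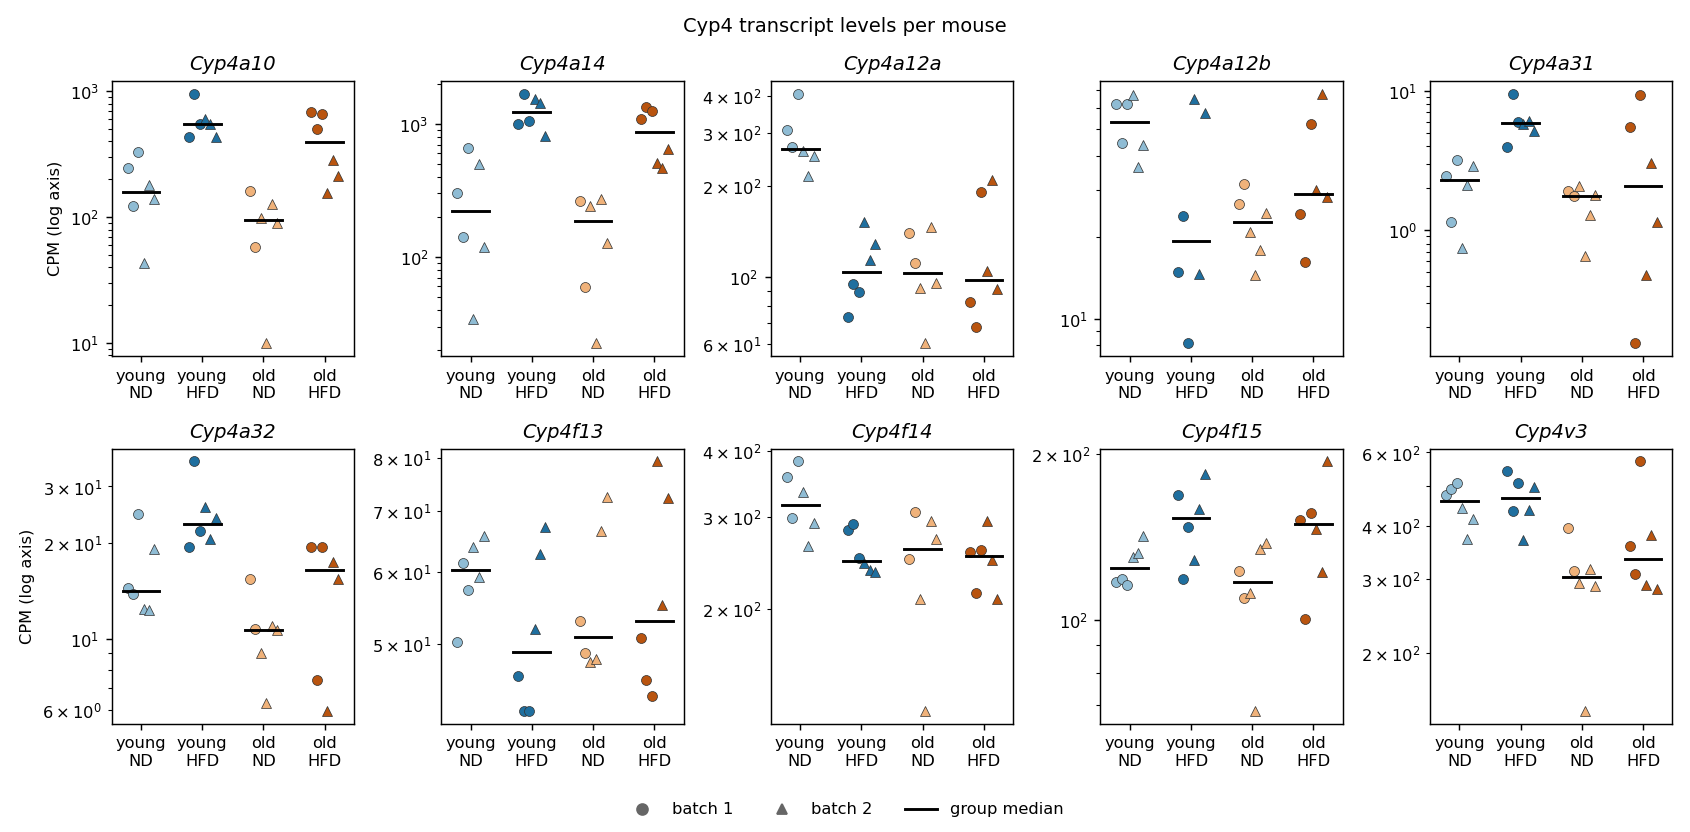
CPM (log axis, scaled per panel) of each Cyp4 gene in each of the 24 mice, with circles for batch 1, triangles for batch 2 and a bar at the median of each group. The HFD mice lie above the ND mice for Cyp4a14 at both ages, and all young ND mice (216 to 406 CPM) lie above the young HFD and old ND mice for Cyp4a12a. Old ND replicate 4 is the lowest of its group for every gene but Cyp4f13.

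The same question in old mice gave the higher Cyp4a10 and Cyp4a14 but no lower Cyp4a12a. Of the 10 members 2 passed, both higher on HFD, against 3.01% of all genes tested (1.37% higher and 1.64% lower). The members' median log2 fold change was 0.38, beside -0.01 over all genes, and all 10 had a value above 0. When old ND replicate 4 was left out the median was 0.29 and 9 of 10 were above 0, Cyp4f14 being the exception at -0.09.

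Cyp4a14 ranged from 22.4 to 273 CPM in old ND mice (median 185) and from 470.3 to 1332 CPM in old HFD mice (median 870.4). As in young mice, the diets did not overlap. The log2 fold change was 2.25 (SE 0.56), or 4.74-fold (edgeR, adjusted p = 0.0309). The 3 old HFD mice of batch 1 (1091 to 1332 CPM) lay above the 3 of batch 2 (470.3 to 649.5 CPM), and the value within batch 1 was 2.89, against 1.71 within batch 2. Leaving out old ND replicate 1, 2 or 6 ended this call (edgeR, adjusted p = 0.0654, 0.0850 and 0.0570), whereas without old ND replicate 4 the value was 2.06 (edgeR, adjusted p = 0.0358).

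Cyp4a10 ranged from 9.97 to 161 CPM in old ND mice (median 94.4) and from 156 to 688 CPM in old HFD mice (median 394), so 5 of 6 HFD mice lay above all ND mice. The log2 fold change was 1.92 (SE 0.44), or 3.79-fold (edgeR, adjusted p = 0.0218). It was 1.74 without old ND replicate 4 (edgeR, adjusted p = 0.0131), and the call was lost without old ND replicate 2 (edgeR, adjusted p = 0.0675). Summed with Cyp4a31 and Cyp4a32 it gave 1.82 (SE 0.40; edgeR, adjusted p = 0.0161). In a fit of the 12 old mice alone, in place of all 24, neither gene passed (edgeR, adjusted p = 0.229 for Cyp4a10 and 0.193 for Cyp4a14), at nearly the same log2 fold changes of 1.87 and 2.23.

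Cyp4a12a ranged from 60.0 to 147 CPM in old ND and from 68.0 to 209 CPM in old HFD mice, and the groups overlapped, with 2 old HFD mice above all old ND mice. Its log2 fold change was 0.21 (SE 0.26; edgeR, adjusted p = 0.685), with -0.18 in batch 1 and 0.47 in batch 2. Cyp4a12b ranged from 14.5 to 31.4 CPM and from 16.2 to 67.8 CPM, with 0.69 (SE 0.39; edgeR, adjusted p = 0.305). The summed copies had 0.31 (SE 0.27; edgeR, adjusted p = 0.535).

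Of the remaining members, Cyp4f15 had the smallest adjusted p, with 68.3 to 138 CPM in old ND and 100.4 to 194 CPM in old HFD mice and a log2 fold change of 0.36 (SE 0.15; edgeR, adjusted p = 0.171). Cyp4f14 (0.01, SE 0.15) and Cyp4f13 (0.08, SE 0.12) had the smallest differences. Cyp4a31 ranged from 0.154 to 9.26 CPM among the old HFD mice, the widest relative span of any member in this group, and rested there on 2 to 115 reads per mouse.

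**Figure D3:**
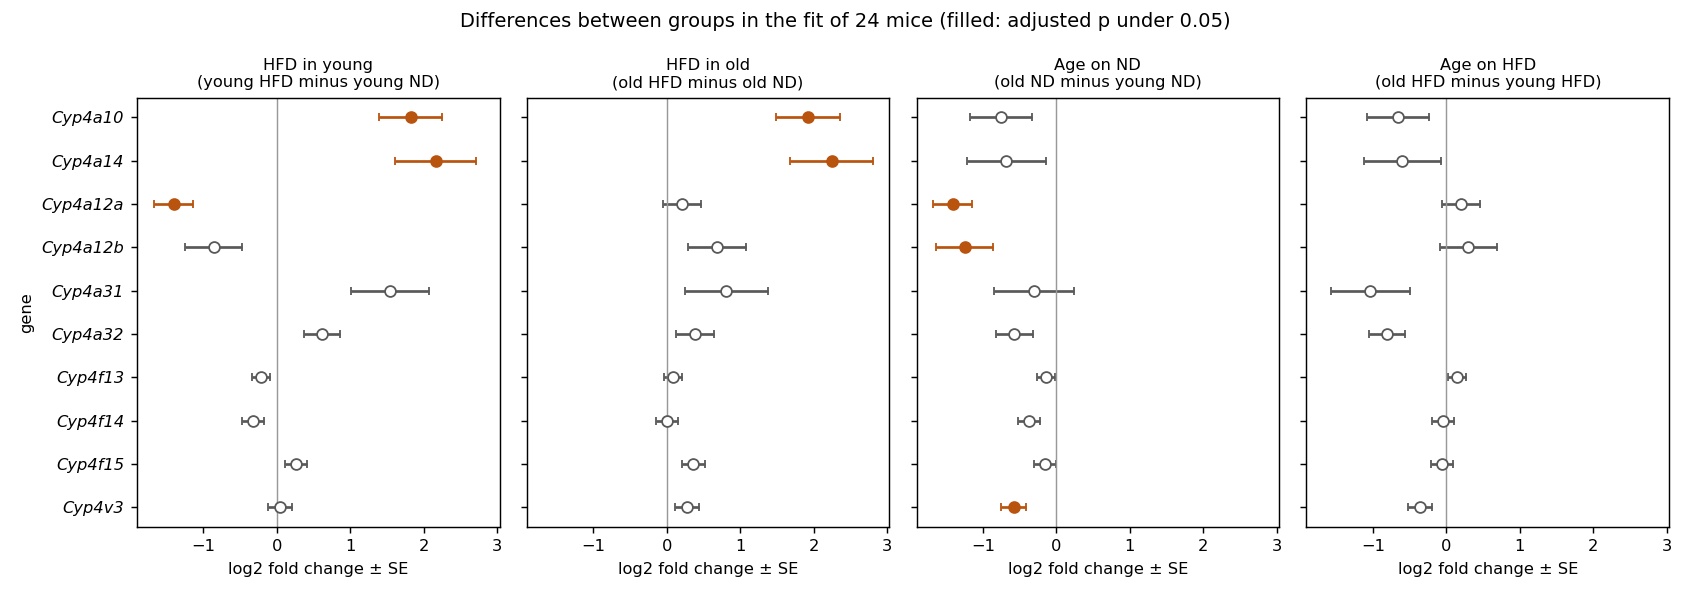
Log2 fold change (x axis, point) with its SE (bar) of the 10 Cyp4 genes in 4 comparisons from 1 edgeR fit of 24 mice, with filled points for an adjusted p under 0.05. Cyp4a10 and Cyp4a14 lie near 2 for HFD at both ages, and Cyp4a12a lies near -1.4 for HFD in young mice and for age on ND but near 0.2 in the other 2 comparisons.

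Whether the response to HFD differed between the ages was tested as an interaction, the log2 fold change in old mice minus that in young mice. No gene of 13583 passed in edgeR (0% of genes), while 1247 genes, 9.18%, had an unadjusted p under 0.05. By the other fits, DESeq2 called 7 genes, limma on FPKM called 0 and edgeR without a count filter called 587. For Cyp4a10 the difference of the effects was 0.10 (SE 0.60) and for Cyp4a14 it was 0.08 (SE 0.76). These wide errors leave room for a sizeable difference in either direction, and within the batches the values had opposite signs (0.97 and -0.73 for Cyp4a10, 1.12 and -0.85 for Cyp4a14).

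For Cyp4a12a the difference was 1.61 (SE 0.37), with an unadjusted p of 0.000217 that gave an adjusted p of 0.512 in edgeR and of 0.0371 in DESeq2. It was 1.75 within batch 1, 1.33 within batch 2 and 1.49 without old ND replicate 4. Over all 9 alternatives it ranged from 1.26 to 1.75 and passed in 2 of them. For Cyp4a12b the difference was 1.55 (SE 0.55; edgeR, adjusted p = 0.531), and for the summed copies it was 1.6 (SE 0.39; edgeR, adjusted p = 0.537). The edgeR fit without a count filter called both genes (adjusted p = 1.84e-09 for Cyp4a12a and 4.81e-09 for Cyp4a12b), and DESeq2 called Cyp4a12a alone. Whether the Cyp4a12 genes responded differently in old and young mice, which also differ in substrain, thus depends on the fit. The sign was the same under each alternative run.

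The comparison of old with young mice on ND concerned age together with substrain. All 10 members had a log2 fold change under 0, with a median of -0.58 (-0.46 without old ND replicate 4, again with all 10 under 0) beside 0.01 over all genes. Of these, 3 passed, all lower in old mice: Cyp4a12a, Cyp4a12b and Cyp4v3, against 8.5% of all genes tested in either direction (7.26% higher and 1.24% lower). The young ND mice enter both this comparison and that of the diets in young mice, so the lower Cyp4a12a in both rests in part on the same 6 mice.

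Cyp4a12a had a log2 fold change of -1.41 (SE 0.27), 2.66-fold lower in old mice (edgeR, adjusted p = 0.00335). The old ND mice (60.0 to 147 CPM, median 103) all lay below the young ND mice (216 to 406 CPM). The value was -1.37 in batch 1, -1.31 in batch 2 and -1.29 without old ND replicate 4 (edgeR, adjusted p = 0.0104), and no left-out mouse ended the call.

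Cyp4a12b had -1.25 (SE 0.39), 2.38-fold lower (edgeR, adjusted p = 0.0481). The groups did not overlap (36.3 to 66.7 CPM in young and 14.5 to 31.4 CPM in old mice), but the call sat at the threshold and was lost in 14 of the 24 fits that left out 1 mouse (edgeR, adjusted p = 0.0510 to 0.129, the largest without old ND replicate 4). Summed, the copies had -1.39 (SE 0.28; edgeR, adjusted p = 0.00436).

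Cyp4v3 ranged from 145 to 397 CPM in old ND mice (median 303) and from 372 to 507 CPM in young ND mice (median 459), with 1 old mouse inside the young range. Its log2 fold change was -0.58 (SE 0.17), 1.5-fold lower (edgeR, adjusted p = 0.0286). The lowest value belonged to old ND replicate 4, and without this mouse it was -0.45 (SE 0.14; edgeR, adjusted p = 0.0632). The call was also lost without young ND replicate 4 or 6 or old ND replicate 2 (edgeR, adjusted p = 0.0666, 0.0578 and 0.0758).

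Cyp4a10 had -0.76 (SE 0.42) and Cyp4a14 -0.68 (SE 0.54), neither of which passed (edgeR, adjusted p = 0.309 and 0.496). Without old ND replicate 4 these values were -0.53 and -0.46, and over all mice left out in turn they ranged from -0.97 to -0.53 for Cyp4a10 and from -0.95 to -0.17 (without young ND replicate 5) for Cyp4a14. Among the Cyp4f genes the value of Cyp4f14 was farthest from 0, at -0.38 (SE 0.15; edgeR, adjusted p = 0.128), and it was -0.25 without this mouse.

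Markers of other cell types moved with this comparison. All 9 immune markers tested were higher in the old mice (7.26% of all genes). Markers near 0 in young ND mice could pass the filter on low counts only through other groups, so this count is partly set by it. The summed level over 12 immune genes ranged from 2.42 to 60.2 CPM in young and from 51.3 to 937 CPM in old mice (51.3 to 689 CPM without old ND replicate 4). Of the defining genes, Cd79a was at 0 in all young ND mice, Ms4a1 in 5 and Cd3e and Cd8a in 4 of them. Against the same 7.26%, the stellate cell markers were higher for 4 of 5 genes (summed 5.25 to 60.0 CPM and 46.5 to 360 CPM). The sinusoidal endothelial markers were higher for 3 of 5 (8.06 to 90.7 CPM and 23.9 to 477 CPM). Without old ND replicate 4 the sums of the old mice reached 158 CPM for stellate and 127 CPM for endothelial markers, and 8 immune, 2 stellate and 0 endothelial markers passed in edgeR. The 1 cholangiocyte marker tested did not pass, and none of the 7 hepatocyte markers did, with sums of 92466 to 146439 CPM in young and of 43749 to 158497 CPM in old mice. The hepatocyte markers had a median log2 fold change of -0.27, beside 0.01 over all genes, with Alb (0.06) and Apoa1 (0.17) above 0. The part of other cells in the lower Cyp4 values was not tested, and in such bulk RNA fewer hepatocytes and less RNA per hepatocyte cannot be told apart. For HFD against ND in old mice no marker of any of the 5 lists passed, although 1 hepatocyte marker was lower without old ND replicate 4. There the median log2 fold change of the hepatocyte markers was -0.41 over all 24 mice, beside -0.01 over all genes.

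On HFD no member passed between old and young mice, against 2.24% of all genes tested. In edgeR 2 of 10 had an unadjusted p under 0.05, Cyp4a32 and Cyp4v3, as had 20.97% of all genes, and DESeq2 called Cyp4a32 (adjusted p = 0.0394) where limma called none. Cyp4a32 ranged from 5.92 to 19.4 CPM in old HFD and from 19.4 to 35.9 CPM in young HFD mice, with the highest old mouse just below the lowest young mouse, and had a log2 fold change of -0.81 (SE 0.25; edgeR, adjusted p = 0.0809). Cyp4a12a, which was lower with age on ND, had 0.20 (SE 0.26; edgeR, adjusted p = 0.693) on HFD. Cyp4a10 had -0.66 (SE 0.42) and Cyp4a14 -0.60 (SE 0.53), with -0.10 and -0.05 in batch 1 but -1.30 and -1.23 in batch 2.

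Old HFD against young ND, where age, substrain and diet all differ, gave 3 called members against 30.2% of all genes tested (17.3% higher and 12.9% lower). Cyp4a12a had -1.20 (SE 0.26; edgeR, adjusted p = 0.00228), 2.3-fold lower and without overlap. Cyp4a10 had 1.17 (SE 0.42; edgeR, adjusted p = 0.0391) and Cyp4a14 1.57 (SE 0.54; edgeR, adjusted p = 0.0305). These calls were lost in 7 and 5 of the 24 fits that left out 1 mouse (edgeR, adjusted p up to 0.0880 and 0.0689). With 3 of 10 the members' share is that of all genes. In this comparison 9 of 9 immune, 5 of 5 endothelial and 3 of 5 stellate markers were higher (17.3% of all genes). Markers near 0 in young ND mice could pass the filter on low counts only through other groups, so these counts are partly set by it. Of the 7 hepatocyte markers 3 were lower (Hnf4a, Cps1 and Apob) and 1 was higher (Apoa1). The part of these markers in the Cyp4 values was not tested.

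The contrast between the PPARalpha-responsive pair and the other members was also followed within each mouse, as the log2 ratio of summed CPM. Relative to the Cyp4a12 copies, Cyp4a10 plus Cyp4a14 stood at a median ratio of 1.14 (0.236 to 2.69) on ND and 15.8 (6.73 to 22.4) on HFD in young mice, and of 2.10 (0.434 to 3.05) on ND and 7.55 (2.73 to 21.8) on HFD in old mice. The mean log2 ratio was thus 3.67 higher on HFD in young mice (pooled SD 0.99, all 6 HFD mice above all ND mice) and 2.41 higher in old mice (pooled SD 1.11, 5 of 6 above). In young mice the batches gave 3.71 and 3.62, and in old mice 3.29 and 1.57.

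Relative to the Cyp4f genes the ratio stood at a median of 0.758 on ND and 3.95 on HFD in young mice, and of 0.604 and 2.65 in old mice. Its mean log2 was 2.47 higher on HFD in young mice (pooled SD 0.99) and 2.48 higher in old mice (pooled SD 1.01), with all 6 HFD mice above all ND mice at either age. The ratios are sums over members and are given as a description without a test.

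**Figure D4:**
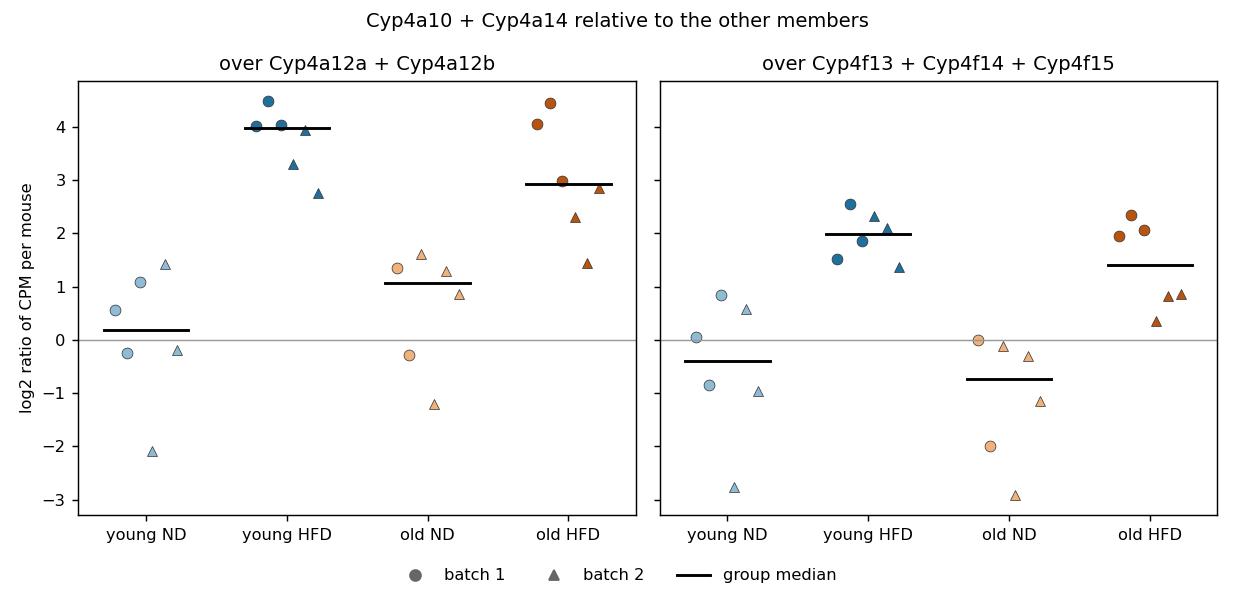
Log2 ratio of the summed CPM of Cyp4a10 and Cyp4a14 to that of the Cyp4a12 copies (left) and of the 3 Cyp4f genes (right) in each mouse, with circles for batch 1, triangles for batch 2 and bars at group medians. The young HFD mice (2.75 to 4.49 on the left) lie above all young ND mice (-2.08 to 1.43), and 1 old HFD mouse (1.45) falls within the old ND range (-1.21 to 1.61).

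Members were next compared across mice of the same group and batch, to see whether a mouse that was high for one was high for another. After the mean of each group within each batch was removed from log2 CPM, Cyp4a10 and Cyp4a14 deviated together (n = 24, Pearson r = 0.904, Spearman rho = 0.840; permutation tests, adjusted p = 0.00048 and 0.0018 over the 4 pairs). Without the 2 mice farthest from the median of Cyp4a10 r was 0.834, and it was 0.915 in batch 1 and 0.902 in batch 2. Cyp4a12a and Cyp4a12b, which share much of their sequence, had r = 0.625 and rho = 0.702 (permutation tests, adjusted p = 0.00786 and 0.00612), with r = 0.471 without the 2 farthest mice, 0.696 in batch 1 and 0.576 in batch 2. Cyp4a10 and Cyp4a12a, whose group means moved in opposite directions with HFD in young mice, deviated in the same direction within groups (r = 0.516, rho = 0.528; permutation tests, adjusted p = 0.0128 and 0.00923), with r = 0.491 without the 2 farthest mice, 0.488 in batch 1 and 0.562 in batch 2. For Cyp4a14 and Cyp4f14 no relation was found (r = 0.329, rho = 0.0861; permutation tests, adjusted p = 0.373 and 0.753), and the r there rested on the 2 farthest mice, without which it was 0.0811 (0.0994 in batch 1 and 0.385 in batch 2).

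**Figure D5:**
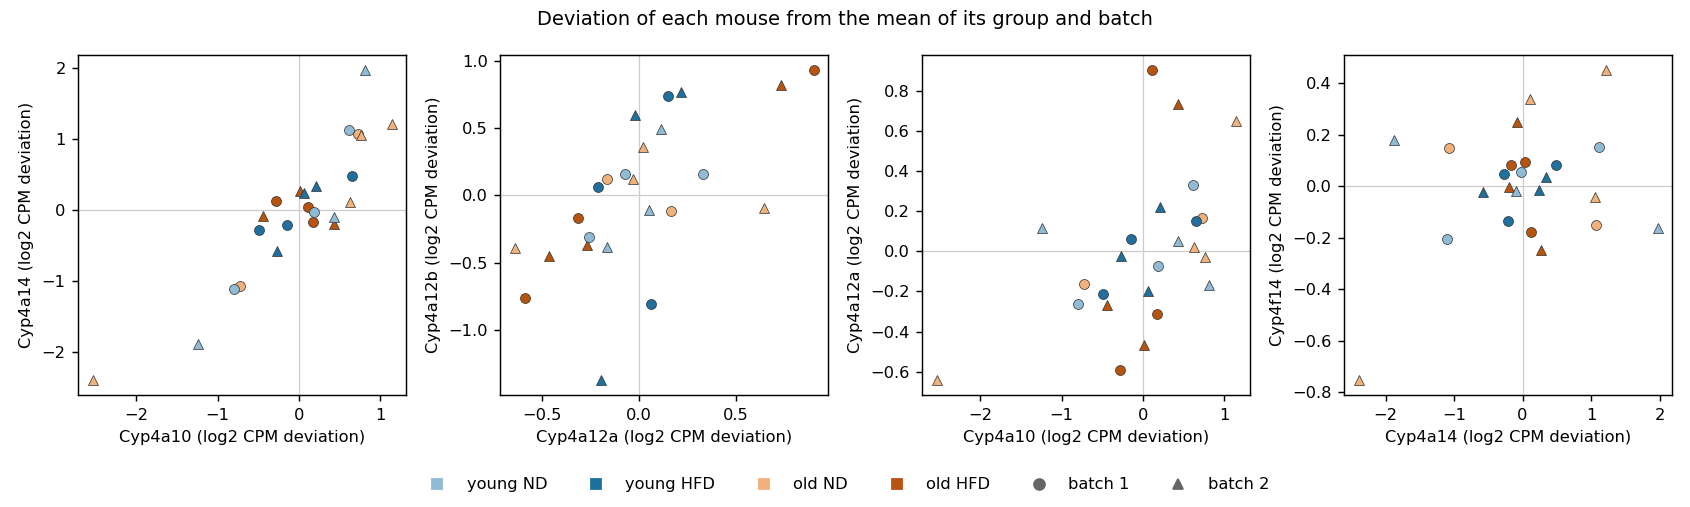
Deviation of each of the 24 mice from the mean of its group and batch, in log2 CPM, for 4 pairs of Cyp4 genes, with colours for groups, circles for batch 1 and triangles for batch 2. Cyp4a10 and Cyp4a14 (left, r = 0.904) form the tightest line, and old ND replicate 4 is its lowest point.

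Over 10449 genes outside the 10 members, those most like Cyp4a14 across the 24 mice (Pearson r of log2 CPM after removal of batch means, a description in which shared group differences count) were Vnn1 (r = 0.915), Pnldc1 (0.894), Lamb3 (0.873), Arl6ip1 (0.863) and Adora1 (0.847). Vnn1, which encodes the pantetheinase vanin-1 and is itself a known PPARalpha target, stood at 57.9 ± 22.6 CPM on ND and 162 ± 43.6 CPM on HFD in young mice, and at 50.8 ± 9.47 and 132 ± 24.8 CPM in old mice. Within groups and batches the r of these 5 genes with Cyp4a14 was 0.624 to 0.753. Most like Cyp4a12a were Ugt2b1 (r = 0.897), Gm26967 (0.878), Serpina3k (0.854), Pde3b (0.837) and Evi5 (0.827). Ugt2b1, a UDP-glucuronosyltransferase, stood at 624 ± 124, 361 ± 72.8, 362 ± 121 and 316 ± 82.2 CPM in the same order.

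The genes that surround the Cyp4 enzymes in the pathway are given by list. Of the 10 genes that take omega-hydroxylated fatty acids further or feed electrons to P450 enzymes, none passed for HFD in young mice (3.5% of all genes) or in old mice (3.01%), nor with age on ND or on HFD. Por, the reductase that passes electrons to P450 enzymes, stood at 183 ± 65.3 CPM in young ND and 221 ± 79.7 CPM in young HFD mice (log2 fold change 0.28, SE 0.28). Aldh3a2, the fatty aldehyde dehydrogenase, came nearest to the threshold, with 0.77 (SE 0.25; edgeR, adjusted p = 0.0761) for HFD in old mice and -0.76 (SE 0.24; edgeR, adjusted p = 0.0547) with age on ND. In old HFD against young ND mice 3 of the 10 were lower (12.9% of all genes): Adh4, Cyb5r3 and Acsm1.

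Of the 18 tested genes of peroxisomal dicarboxylic acid oxidation, none passed for HFD in young mice (3.5% of all genes), 2 were higher for HFD in old mice (1.37%) and 4 were lower with age on ND (1.24%). Without old ND replicate 4 these counts were 2 higher, 2 higher and 2 lower. Slc27a2, a very-long-chain acyl-CoA synthetase and fatty acid transporter, had a log2 fold change of 0.77 (SE 0.15; edgeR, adjusted p = 0.00761) for HFD in old mice, where Pex11a, a factor of peroxisome proliferation, had 0.66 (SE 0.17; edgeR, adjusted p = 0.0324). With age on ND Pex11a had -0.81 (SE 0.17; edgeR, adjusted p = 0.00485), Acsl1 -0.77 (SE 0.20) and Abcd3, the peroxisomal transporter of dicarboxylic acids, -0.61 (SE 0.19), the last of which did not pass without that mouse. The median log2 fold change of the list was 0.25, 0.33, -0.48 and -0.40 for HFD in young, HFD in old, age on ND and age on HFD, beside 0.01, -0.01, 0.01 and 0.01 over all genes.

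Of 28 tested PPARalpha targets outside the Cyp4 family, 4 were higher on HFD in young (1.91% of all genes) and 4 in old mice (1.37%), and 7 were lower with age on ND (1.24%). These counts were 5, 4 and 3 when old ND replicate 4 was left out. Vnn1 rose in both HFD comparisons, by 1.5 (SE 0.21; edgeR, adjusted p = 0.000224) in young and 1.33 (SE 0.21; edgeR, adjusted p = 0.0016) in old mice. Cd36, a fatty acid transporter (1.20, SE 0.26), and Cpt1a, which admits fatty acids to mitochondria (0.79, SE 0.18), rose on HFD in young mice. In old mice Creb3l3 (0.50, SE 0.12) and Pex11a rose. Acot1, an acyl-CoA thioesterase, was lower with age on ND, with a log2 fold change of -1.38 (SE 0.34; edgeR, adjusted p = 0.0140). The list's median was 0.31, 0.48, -0.49 and -0.36 in the same order of comparisons as above, and Cyp4a10 and Cyp4a14 lay above it in both diet comparisons with values from 1.82 to 2.25. Ppara itself stood at 76.4 ± 17.3 CPM on ND and 91.3 ± 17.8 CPM on HFD in young mice, and at 60.1 ± 24.3 and 60.8 ± 17.8 CPM in old mice, and passed in none of the comparisons. The nearest was age on HFD (-0.60, SE 0.17; edgeR, adjusted p = 0.0636). Of the 16 tested regulators, 1 was lower for HFD in young mice (1.59% of all genes), Ppard (-1.91, SE 0.47; edgeR, adjusted p = 0.0264), and none passed for HFD in old mice or for age on either diet. In old HFD against young ND mice 6 were lower (12.9% of all genes), Hnf4a, Stat5b and Ppard with the smallest adjusted p, and 1 was higher (17.3%).

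Cyp4a12a and Cyp4a12b are male-biased genes, so genes of sex-biased liver expression were listed too (all mice were male). Of 20 male-biased genes, 7 were lower on HFD in young mice (1.59% of all genes), 1 on HFD in old mice (1.64%), 7 with age on ND (1.24%) and none with age on HFD (0.42%). Without old ND replicate 4 the 7 with age on ND became 1, which was Mup3. No gene of the list was higher in any comparison of all 24 mice. Gstp1, a glutathione transferase, fell with HFD in young mice (log2 fold change -1.94, SE 0.27; edgeR, adjusted p = 0.000224) and in old mice (-1.05, SE 0.26; edgeR, adjusted p = 0.0307). The major urinary protein gene Mup3 had -0.76 (SE 0.17) and the steroid hydroxylase gene Cyp2d9 -0.78 (SE 0.22) with age on ND. The list's median was -0.91, 0.04, -0.77 and 0.14 in the same order of comparisons, beside -1.40, 0.21, -1.41 and 0.20 for Cyp4a12a. Of the 20 female-biased genes only 10 passed the filter on low counts. Of these, 5 were higher for HFD in young mice (1.91% of all genes) and 1 for HFD in old mice (1.37%). With age 3 were higher on ND (7.26%) and none on HFD (1.82%). The filter asks for enough reads in only as many mice as a group holds. Genes near 0 in young ND mice could thus enter only through groups where they were higher. The counts over young ND mice are therefore partly set by the filter and are given as a description. The P450 gene Cyp2b9 stood at 0.303 ± 0.300 CPM on ND and 71.5 ± 55.6 CPM on HFD in young mice, and at 8.37 ± 6.75 and 68.1 ± 47.0 CPM in old mice.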

How the data were processed

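RNA-seq was analysed in 24 mice in 4 groups taken from GEO's labels. Per the labels and the study's methods, the authors aligned reads to mm10 (Gencode vM23) with STAR in 2 passes (2.7.3a per the submitters' notes) and deposited raw read counts per gene from HTSeq 0.11.2. Strand and multi-mapping settings are not given in the sources used here. The authors also deposited FPKM values from Cufflinks, which by the file's name were batch-corrected with ComBat. Over 3546 genes their implied length followed the whole gene span (r = 0.997) more than exon length (r = 0.679), so levels between genes were set as CPM per kb of exon length (GENCODE M21) instead. Every column had a sample.

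Counts were fitted with edgeR 4.0.16 (R 4.3.3): TMM, filterByExpr by group, group plus batch, quasi-likelihood F tests, Benjamini-Hochberg over 13583 genes, adjusted p under 0.05. Log2 CPM used a prior count of 2. Alternatives were DESeq2 1.42.0, limma 3.58.1 on log2(FPKM + 1) and those of the closing section. Correlations used 100000 permutations within group and batch. The tests were also run on counts simulated without a batch effect, where limma was given scaled counts in place of FPKM. The outcome is not reported here. Named genes were all 10 members, up to 3 genes per list and comparison by adjusted p, the 5 most alike to Cyp4a14 and Cyp4a12a, the other Cyp4 genes, defining hepatocyte genes, Por and Ppara. Defining genes at 0, Apob, Cps1 and Serpina1c were named outside this rule, after their values were seen. The lists hold 1 gene whose values are not reported here. The gene lists were also counted without old ND replicate 4, an alternative chosen after seeing the data. The members and lists were chosen with earlier results of these data known. The labels do not say more of the replicates than that they are separate samples, so p-values measure the spread between these samples. No 2 libraries of a group agreed within sampling noise. Counting error is small beside this spread at the totals given, except for Cyp4a31.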

Additional observations from a re-analysis of the deposited data

Results flagged for a closer look

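In each group of 6 mice the highest and the lowest value of log2 CPM was set against the others (Dixon's test, 95% level, which flags about 1 in 20 groups by chance), for 10 genes in 4 groups. The 3 groups flagged all pointed to 1 mouse, old ND replicate 4, as the lowest of its group. Its log2 CPM was 3.32 for Cyp4a10 (the nearest other mouse was at 5.86), 6.09 for Cyp4f15 (nearest 6.78) and 7.18 for Cyp4v3 (nearest 8.17). The same mouse had the lowest summed hepatocyte markers (43749 CPM) and the highest summed immune markers (937 CPM) of its group, whose part in these low values was not tested.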

How the results depend on the processing

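The alternatives were those listed for each result: RLE scaling, no count filter, DESeq2, no batch term, a block for replicate number instead of batch, only the mice compared, limma on FPKM, each batch alone, near-identical copies summed and each mouse left out in turn. For single members, 507 of 572 values (1367 of 1440 with 1 mouse left out) kept their direction and side of the threshold. The count of members called was 3 for HFD in young mice: it became 6 without a count filter, 6 with only the mice compared, 4 with DESeq2, 4 with limma on FPKM, 1 without batch, 1 in batch 1, 0 in batch 2 and 1 to 4 with 1 mouse left out. For HFD in old mice it was 2: it became 3 without a filter, 0 with only the mice compared and in either batch, and 0 to 2 with 1 mouse left out. For age on ND it was 3: it became 6 without a filter, 2 with RLE scaling, 2 with copies summed, 1 without batch, 1 with limma on FPKM, 0 in either batch and 1 to 3 with 1 mouse left out. For age on HFD it was 0: it became 4 without a filter, 1 with DESeq2 and 0 to 1 with 1 mouse left out. For old HFD against young ND it was 3: it became 4 without a filter, 2 without batch, 1 in batch 1, 0 in batch 2 and 1 to 4 with 1 mouse left out. For the interaction it was 0: it became 2 without a filter and 1 with DESeq2. Single batches hold fewer mice; the other causes were not tested. The number of all genes called ranged for HFD in young mice from 9 (batch 2) to 2302 (only the mice compared), beside 475, and for HFD in old mice from 15 (batch 1, and only the mice compared) to 1108 (no filter), beside 409. For age on ND it ranged from 2 (batch 2) to 2053 (no filter), beside 1155.

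Signs turned only in values that passed neither way. For Cyp4f14 with HFD in old mice the log2 fold change was -0.027 without a filter, -0.033 with limma, -0.23 in batch 1 and -0.092 to 0.094 with 1 mouse left out. In batch 1, Cyp4a12a (-0.18) and Cyp4f13 (-0.17) turned for HFD in old mice, and Cyp4f15 for age on ND (0.0025) and the interaction (-0.11). In batch 2, Cyp4a12b (-0.14) and Cyp4f14 (0.052) turned for age on HFD, Cyp4a31 (-0.34) and Cyp4f13 (0.14) for old HFD against young ND, and Cyp4a10 (-0.73) and Cyp4a14 (-0.85) for the interaction. With 1 mouse left out, the interaction ranged from -0.12 to 0.33 for Cyp4a10, -0.50 to 0.38 for Cyp4a14 and -0.024 to 0.18 for Cyp4f15. Age on HFD ranged from -0.031 to 0.32 for Cyp4a12a, -0.13 to 0.0048 for Cyp4f14 and -0.15 to 0.023 for Cyp4f15. Old HFD against young ND ranged from -0.016 to 0.78 for Cyp4a31 and from -0.12 to 0.0099 for Cyp4f13, and HFD in young mice from -0.014 to 0.093 for Cyp4v3. In old HFD against young ND, Cyp4a10 was lost in 7 and Cyp4a14 in 5 of the 24 fits.

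Replicate numbers are shared between groups, and 21 of 36 same-numbered pairs had correlated deviations over 0.1 (4 of 36 with batch removed). Pairs with different numbers were not set beside them, so these counts cannot decide whether the numbers pair the mice. By the labels, replicate 3 was in batch 2 for old ND and in batch 1 for the other groups. With the replicate block the counts of members called were 3, 2, 2, 0, 3 and 0 in the order above, Cyp4a12b with age on ND being the call that was lost (edgeR, adjusted p = 0.0799), and those of all genes were 283, 445, 1350, 131, 3478 and 1. The ratios moved by less than 1 SD with FPKM and with any mouse left out. Within the batches the ratio to Cyp4f for age on HFD was 0.14 and -1.25, beside -0.56 (pooled SD 0.67). Depth limits Cyp4a31 most, with 2 to 169 reads per mouse.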

Other observations

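The count table holds 10 further Cyp4 genes. Of these, 3 passed the filter on low counts. Cyp4f16 was higher in old than in young ND mice (3.87 ± 2.34 and 0.789 ± 0.403 CPM, log2 fold change 2.11, SE 0.43; edgeR, adjusted p = 0.00478), and so was Cyp4b1 (14.3 ± 14.6 and 4.55 ± 3.45 CPM, 1.34, SE 0.40; edgeR, adjusted p = 0.0349), in the comparison in which the markers of other cell types also were higher. Their part in this was not tested, and without old ND replicate 4 Cyp4f16 passed and Cyp4b1 did not. Both also passed, with higher values, for old HFD against young ND. Cyp4f17 (15.2 to 16.8 CPM in the group means) passed in no comparison. Cyp4f18, Cyp4f39, Cyp4f40 and Cyp4x1 had 171, 146, 10 and 4 reads in all 24 mice. Cyp4a29, Cyp4a30b and Cyp4f37 had 0 of 373808388 reads, which allows a level of up to 0.00803 CPM over the 24 mice (3 counts, counting error only).

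Cyp4a and Cyp4f enzymes share arachidonic acid and its products as substrates with the P450 epoxygenases, hydrolases and oxygenases. Of 19 tested genes of that list, none was higher and 2 were lower on HFD in young mice (1.91% and 1.59% of all genes), 2 were higher and 2 lower on HFD in old mice (1.37% and 1.64%), 1 was higher and 3 were lower with age on ND (7.26% and 1.24%), and none passed with age on HFD (2.24% in either direction). Without old ND replicate 4, 1 was higher with age on ND (Ptgs2), and neither Ptgs1, Cyp2j5 nor Ephx2 passed. Cyp2c55 had a log2 fold change of -2.61 (SE 0.39; edgeR, adjusted p = 0.000609) in young and -2.90 (SE 0.41; edgeR, adjusted p = 0.000475) in old mice. Cyp2c29, a liver epoxygenase, had -1.20 (SE 0.22) in young and -1.29 (SE 0.23) in old mice. Cyp2j6 was higher on HFD in old mice by 0.69 (SE 0.12; edgeR, adjusted p = 0.00371). With age on ND, Ephx2, the soluble epoxide hydrolase, had -0.66 (SE 0.19; edgeR, adjusted p = 0.0329), Cyp2j5 had -0.47 (SE 0.13) and Ptgs1 had 2.41 (SE 0.62).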
